A study of Homo sapiens with 6 samples.

Results

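The genes described here are 10 inhibitors and targets of the Wnt pathway: the secreted proteins DKK4, DKK1 and NOTUM, the membrane proteins RNF43, ZNRF3 and APCDD1, the intracellular proteins AXIN2 and NKD1, the transcription factor SP5 and the stem cell receptor LGR5. They were taken by symbol, and all 10 were found among the 26490 genes of the count table. The question was whether the rise of DKK4 after IRS2 knockdown is shared by the other Wnt feedback genes, and in what order of size. The list was chosen by the measured rise of DKK4 in this same comparison, with the values of several other members also known. Their values are therefore given as a description, and the calls of the fit over all genes are stated without being read as evidence for the list.

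The cells are labelled SW403, an established human colon adenocarcinoma line, and were grown for 24 h in DMEM with 10% fetal bovine serum and no added treatment. The 3 control libraries are labelled as wild type for IRS2 and carry the letters NS in their descriptions. The 3 knockdown libraries are labelled IRS2_knockdown, although their descriptions carry the letters KO. IRS2 encodes an adaptor of the insulin and IGF1 receptors. The means of lowering IRS2, and whether the cultures of a group come from separately made lines or from 1 line, are not given in the sources used here, so p-values measure only the spread between these cultures, which may be technical.

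In Wnt signalling, secreted Wnt proteins bind Frizzled receptors and the co-receptors LRP5 and LRP6. This stops a cytoplasmic destruction complex from degrading beta-catenin, which then enters the nucleus and acts with TCF factors on target genes. Several of those targets encode inhibitors of the pathway and so close a negative feedback loop. In the intestinal crypt the pathway maintains the stem cells, which LGR5 marks, and in most colorectal cancers it is active through mutations of the destruction complex.

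Total counts ran from 11816973 to 12585013 in the control libraries and from 14329348 to 18114656 in the knockdown libraries, so depth moved with the group. IRS2 itself fell from 32.8 ± 1.55 to 12.5 ± 0.49 CPM (SD, n = 3 each). CPM values here are counts per 1000000 counts of the library, scaled with the trimmed-mean (TMM) factors. Of 10 colon epithelial markers, 5 were at 10 CPM or more on average, among them KRT8, KRT18, EPCAM and CDX2, while KRT20, CDX1 and CEACAM5 had 0 reads in all 6 libraries and CDH1 was at 0.263 ± 0.228 CPM in control (SD, n = 3). These 4 markers of the labelled cell type were thus absent or nearly so, and the identity of the line was not tested. The summed level of these markers was 2501 to 2607 CPM in control and 2380 to 2495 CPM in knockdown libraries. None of 12 markers of other cell types reached 10 CPM, and their summed level was 12.0 to 31.0 CPM in control and 8.75 to 11.5 CPM in knockdown libraries. Of these 12, 8 averaged under 1 CPM, and PECAM1 and ALB, of endothelium and liver, were at 0. In the fit described below, 4 of the 12 were tested, with 0 higher and 2 lower in knockdown and a median log2 fold change of -0.63. Over all tested genes 19.3% were called higher and 19.2% lower. The part of depth or of these markers in the results was not tested, except that counts thinned to the smallest library gave the same 8 calls among the 10 genes.

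RefSeq promoter windows, 250 bases before to 50 after the start of a gene on GRCh38.p14, were at hand for 4 of the 10 genes: SP5, DKK1, RNF43 and APCDD1. The windows were searched on both strands for CTTTG followed by 2 bases that are each A or T, which gives 4 words of the core bound by TCF factors. No matches overlapped in the windows shown. SP5 held 3 matches and DKK1 held 2, while the 2 RNF43 windows and the APCDD1 window held 0. Of all 35116 windows of this length, 13.8% held at least 1 match, 1.58% at least 2 and 0.179% at least 3. The stretch with the matches is shown for SP5, whose expression rose, and for DKK1, whose expression did not pass the test, so that a gene of each kind can be compared. Capitals mark the matches, and those on the other strand end in CAAAG. A match is a description of the letters, not a bound site.
SP5, chr2:170715177-170715276, plus strand: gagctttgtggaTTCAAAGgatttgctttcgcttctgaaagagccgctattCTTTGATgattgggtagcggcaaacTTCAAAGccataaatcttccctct
DKK1, chr10:52314121-52314220, plus strand: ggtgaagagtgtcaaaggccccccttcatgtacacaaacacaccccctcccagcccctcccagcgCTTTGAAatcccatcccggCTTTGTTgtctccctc

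The rise of DKK4 was shared in direction by most of the other genes but not in size. In edgeR's quasi-likelihood fit over all 13832 tested genes, 8 of the 10 genes were higher in knockdown at an adjusted p under 0.05, 0 were lower, and LGR5 and DKK1 did not pass. Over all tested genes 19.3% were called higher. All 10 passed the low-count filter. The median log2 fold change of the 10 genes was 0.23, and 0.23 without DKK4, against -0.0039 over all tested genes. In 9 of the 10 genes every knockdown library lay above every control library, which was so for 23.7% of all tested genes.

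**Figure D1:**
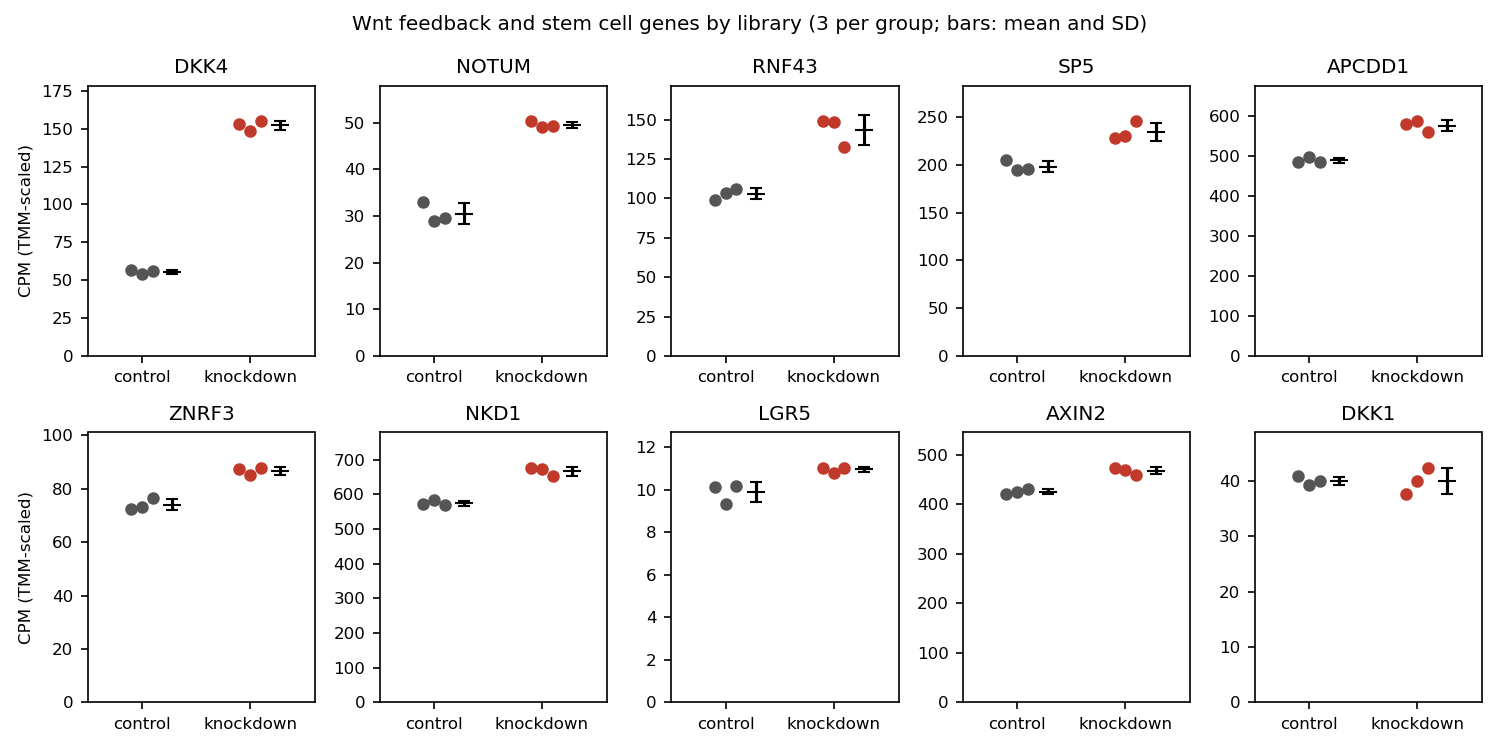
CPM (vertical axis, from 0) of each of the 10 genes in the 3 control (grey) and 3 knockdown (red) libraries, with the mean and SD as bars. DKK4 moves from about 55.4 to 152 CPM, the other called genes by smaller steps, and the groups overlap only in DKK1.

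Among the secreted inhibitors, DKK4 and DKK1 encode Dickkopf proteins, which bind LRP5 and LRP6 and block Wnt reception. DKK4 (GRCh37 chromosome 8, 42231581 to 42234747, 4 exons) was at 56.5, 53.8 and 55.8 CPM in the control libraries and at 153, 149 and 155 CPM in the knockdown libraries. The groups were far apart and the libraries within each lay close together. The log2 fold change was 1.46 ± 0.04 (SE), a 2.75-fold rise. It ranked 18 of 13832 with genes ordered from the largest rise to the largest fall, so large falls do not count against this rank. DKK1 (chromosome 10, 54074041 to 54077802, 4 exons) was at 40.8, 39.2 and 39.9 CPM in control and at 37.6, 39.9 and 42.3 CPM in knockdown. The knockdown libraries lay on both sides of the control libraries, and the log2 fold change was 0.0037 ± 0.06 (SE). The ratio of DKK4 to DKK1 counts within a library, which does not depend on how libraries are scaled, was 1.39, 1.37 and 1.40 in control and 4.07, 3.72 and 3.66 in knockdown. The related genes thus moved apart by 1.46 ± 0.05 (log2, SE).

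NOTUM encodes a secreted carboxylesterase that removes the lipid Wnt proteins need to bind their receptors. NOTUM (chromosome 17, 79910383 to 79919716, 11 exons) was at 33.0, 29.0 and 29.5 CPM in control and 50.3, 49.1 and 49.3 CPM in knockdown. No libraries overlapped, and control replicate 1 lay above the other controls. The log2 fold change was 0.70 ± 0.06 (SE), or 1.62-fold, the largest of the 10 after DKK4.

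At the membrane, RNF43 and ZNRF3 encode related ubiquitin ligases that remove Frizzled receptors from the cell surface. RNF43 (chromosome 17, 56431037 to 56494956, 10 exons) was at 99.2, 103 and 106 CPM in control and at 149, 148 and 132 CPM in knockdown. Knockdown replicate 3 was the lowest of its group but remained above all controls, and the log2 fold change was 0.48 ± 0.05 (SE). ZNRF3 (chromosome 22, 29279560 to 29453476, 9 exons) was at 72.4, 73.2 and 76.6 CPM in control and 87.3, 85.0 and 87.9 CPM in knockdown. This was a smaller step without overlap, with a log2 fold change of 0.23 ± 0.04 (SE). The ratio of RNF43 to ZNRF3 counts was 1.37, 1.41 and 1.38 in the control libraries and 1.71, 1.75 and 1.51 in the knockdown libraries. RNF43 therefore gained on its relative by 0.25 ± 0.07 (log2, SE), with knockdown replicate 3 nearest to the controls.

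**Figure D2:**
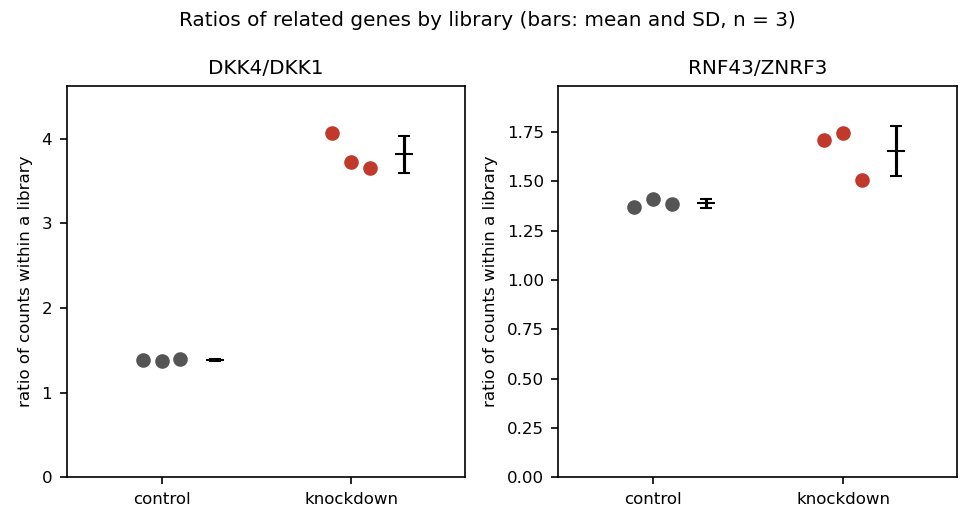
Ratio of counts within each library (vertical axes, from 0) for DKK4 over DKK1 and RNF43 over ZNRF3, with mean and SD as bars (n = 3). Both ratios are higher in every knockdown library, the first by 2.75-fold and the second by 1.19-fold.

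APCDD1 encodes a membrane glycoprotein that binds Wnt and LRP proteins. APCDD1 (chromosome 18, 10454632 to 10489946, 5 exons) was at 485, 497 and 485 CPM in control and 580, 587 and 560 CPM in knockdown. The step between the groups was wider than the spread within either, and the log2 fold change was 0.24 ± 0.03 (SE).

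Inside the cell, AXIN2 encodes a scaffold of the destruction complex and is a standard readout of beta-catenin activity, and NKD1 encodes a protein that binds Dishevelled. AXIN2 (chromosome 17, 63524681 to 63557766, 11 exons) was at 420, 426 and 431 CPM in control and 474, 469 and 460 CPM in knockdown. The groups did not overlap, but the log2 fold change of 0.14 ± 0.03 (SE), a rise of 9.86%, was the smallest among the 8 called genes. NKD1 (chromosome 16, 50582307 to 50683160, 10 exons) was at 571, 583 and 570 CPM in control and 677, 673 and 653 CPM in knockdown. Its log2 fold change was 0.22 ± 0.03 (SE), and it had the most counts of the 10 genes in every library.

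SP5 encodes a zinc finger transcription factor that is induced by Wnt and lowers the expression of other Wnt targets. SP5 (chromosome 2, 171571847 to 171574588, 2 exons) was at 205, 195 and 195 CPM in control and at 228, 231 and 246 CPM in knockdown. All knockdown libraries were above all controls, and the log2 fold change was 0.24 ± 0.04 (SE).

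LGR5 encodes a receptor for R-spondins, which strengthen Wnt signals by clearing RNF43 and ZNRF3. LGR5 (chromosome 12, 71833578 to 71980090, 18 exons) was at 10.1, 9.34 and 10.2 CPM in control and 11.0, 10.8 and 11.0 CPM in knockdown. These values came from 118 to 197 counts per library, by far the fewest of the 10 genes. The groups did not overlap, yet the log2 fold change of 0.15 ± 0.10 (SE) did not pass the test. Counting error alone gives a coefficient of variation of 9.02% at the mean control count and 7.47% in knockdown for a single library. The observed values were lower, at 4.78% in control and 1.16% in knockdown. With n = 3 in each group these observed values are themselves uncertain, and the reason for the lack of overlap was not tested.

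**Figure D3:**
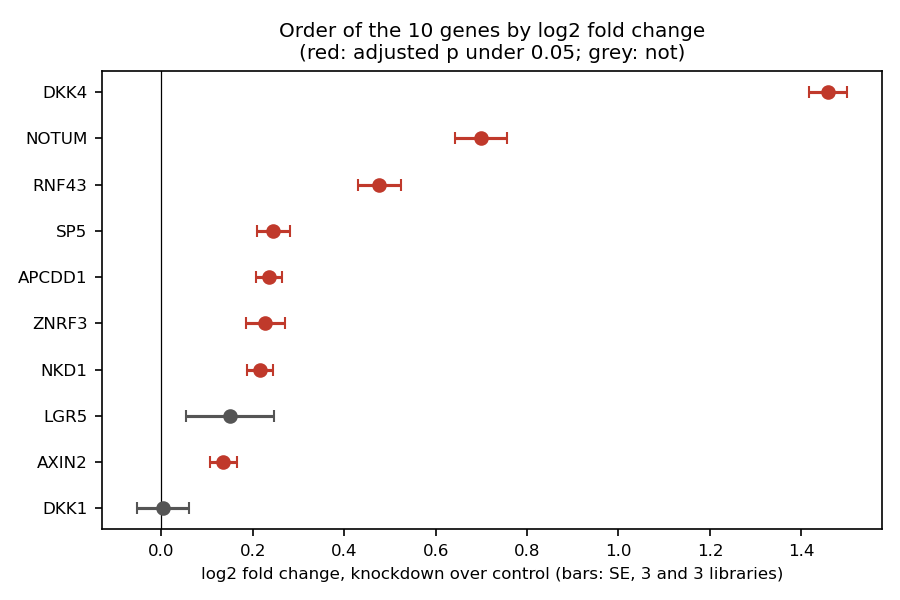
Log2 fold change of knockdown over control (horizontal axis) for the 10 genes in order, with SE as bars; red marks an adjusted p under 0.05. DKK4 (1.46), NOTUM (0.70) and RNF43 (0.48) stand above a group from SP5 to AXIN2 between 0.24 and 0.14, with DKK1 at 0.0037.

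The order was examined with the ratio of neighbouring genes within each library. DKK4 exceeded NOTUM by 0.76 ± 0.05, NOTUM exceeded RNF43 by 0.23 ± 0.10, and RNF43 exceeded SP5 by 0.23 ± 0.10 (log2 difference in fold change, SE over 3 and 3 libraries). The last 2 of these were only 2.29 and 2.26 times their SE. From SP5 through APCDD1, ZNRF3, NKD1 and LGR5 to AXIN2, no neighbours differed by more than 2 SE, and the gaps ran from 0.0080 to 0.06. The order of neighbours in this group is therefore not resolved, but some genes further apart in it differed by more than 2 SE. APCDD1 gained on AXIN2 by 0.10 ± 0.02 and NKD1 by 0.08 ± 0.02, while the gain of SP5 on AXIN2, 0.11 ± 0.06, was within 2 SE (log2, SE). AXIN2 exceeded DKK1 by 0.14 ± 0.07, which is 2.06 times its SE, and by 0.085 without knockdown replicate 1. These gaps are descriptions, and no p was computed.

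DKK4 took 2.68% to 2.83% of the summed CPM of the 10 genes in control and 6.09% to 6.47% in knockdown. Without DKK4 the summed level was 1936 to 1954 CPM in control and 2241 to 2294 CPM in knockdown. Per kilobase of the canonical GENCODE transcript, APCDD1 was the most abundant in control, at 129 ± 1.83 CPM per kb, followed by AXIN2 at 99.9 ± 1.29 and SP5 at 96.8 ± 2.81, and these last values do not differ beyond their spread (SD, n = 3). DKK4 stood below these at 61.8 ± 1.54 CPM per kb in control and above all of the others at 170 ± 3.59 in knockdown, where APCDD1 was at 151 ± 3.70. LGR5 was the lowest in both groups, at 2.16 ± 0.10 and 2.39 ± 0.03 CPM per kb. The canonical transcript may not be the one expressed. That of NKD1 is 17039 nt long and gives a low value per kilobase, 33.7 ± 0.43 CPM per kb in control.

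**Figure D4:**
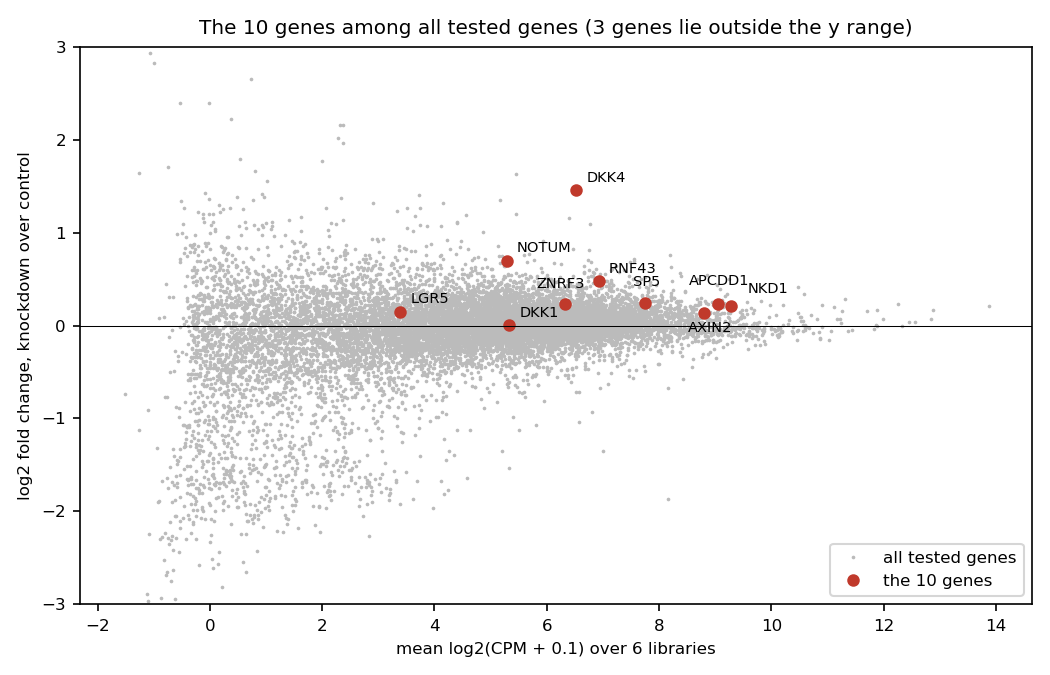
Log2 fold change (vertical axis) against mean log2(CPM + 0.1) over 6 libraries (horizontal axis) for all 13832 tested genes (grey) and the 10 genes (red). DKK4 ranks 18 of 13832 from the largest rise down, while LGR5 (rank 3206) and DKK1 (6703) lie inside the grey cloud. The called genes from SP5 (1898) to AXIN2 (3495) rank on both sides of LGR5.

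Log2 fold changes varied with transcript length over all genes. In 5 equal bins of canonical transcript length the median ran from -0.05 in the shortest to 0.04 in the longest. DKK4 lies in the shortest bin, and ZNRF3 and NKD1 in the longest. The 8 called genes had log2 fold changes at least 0.11 above the median of their own bin. Exons of other genes overlap 6 of the 10 genes, which could share reads with them. For the antisense genes this depends on the strand setting, which is not given. A protein-coding gene on the same strand covers 4326 of the 6329 exonic bases of RNF43, and another covers 1316 of 5197 for AXIN2. Both have only an identifier as their name in GENCODE. The counts are listed by gene symbol, so the absence of these identifiers cannot show how such reads were counted. The antisense gene TSPOAP1-AS1 shares 345 bases with RNF43 and had a mean of 63.3 counts, against 1806 for RNF43. Antisense genes share 227 exonic bases with DKK1, 208 with LGR5, 148 with NOTUM and 67 with NKD1.

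The rest of the pathway was read from lists written with earlier results of these data known. Of 104 tested genes in 8 lists, 37 were higher and 23 lower, or 35.6% and 22.1%, against 19.3% and 19.2% of all tested genes. The R-spondin receptors split. LGR6 was at 9.27, 8.31 and 8.18 CPM in control and at 22.5, 19.8 and 20.0 CPM in knockdown, a rise of 1.27 ± 0.09 (log2, SE; edgeR adjusted p 3.39e-09). LGR4 was at 13.0, 15.4 and 13.2 CPM in control and 10.1, 9.40 and 8.69 CPM in knockdown, a fall with a log2 fold change of -0.57 ± 0.10 (SE; edgeR adjusted p 0.000209). LGR6 was thus higher and LGR4 lower in every knockdown library, while LGR5 did not pass. Of 17 tested receptors and R-spondins, 7 were higher and 4 lower. ROR1, a receptor tyrosine kinase for Wnt proteins, rose by 0.45 (log2). The co-receptors LRP5 and LRP6, the targets of Dickkopf proteins, were named after their values were seen and rose by 0.31 ± 0.04 and 0.19 ± 0.06 (log2, SE). The R-spondin genes RSPO1 to RSPO4 had too few reads to be tested.

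The counts per list stand beside 19.3% higher and 19.2% lower over all tested genes, and some shares were near these. Of 10 tested Wnt ligands, 4 were higher and 1 lower. WNT5A, which mostly signals without beta-catenin, rose from 257 ± 10.7 to 309 ± 9.43 CPM (SD, n = 3 each; edgeR adjusted p 7.46e-06). Of 5 tested other secreted antagonists and Dickkopf receptors, 2 rose and 1 fell. TRABD2A, a membrane protease that inactivates Wnt proteins, rose by 0.67 ± 0.08, and DKK3, a divergent Dickkopf, had a log2 fold change of -0.45 ± 0.07 (SE). KREMEN2, a Dickkopf receptor, rose by 0.27 ± 0.09 (log2, SE; edgeR adjusted p 0.0322), but its adjusted p was 0.132 in DESeq2's Wald test and up to 0.187 with a library left out. Of 12 tested membrane and intracellular inhibitors, 3 rose and 4 fell. CXXC5, which binds Dishevelled, rose by 0.38 ± 0.04, while SHISA2, which holds Frizzled in the endoplasmic reticulum, had a log2 fold change of -0.997 ± 0.10 and CBY1, which binds beta-catenin, of -0.39 ± 0.09 (SE). Neither PORCN nor WLS, which serve the secretion of Wnt proteins, passed the test.

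Of 21 destruction complex and TCF genes, 10 were higher and 2 lower, beside 19.3% and 19.2% of all tested genes. The TCF factors TCF7 and TCF7L2 rose by 0.42 ± 0.04 and 0.41 ± 0.06, and TNKS2, a tankyrase that marks axins for degradation, by 0.36 ± 0.04 (log2, SE). Of 24 tested other Wnt targets, 8 rose and 6 fell. EPHB2, a receptor of the crypt base, rose by 0.60 ± 0.09 (log2, SE), while JUN, a subunit of AP-1, had a log2 fold change of -0.71 ± 0.05 and VEGFA, an angiogenic factor, of -0.57 ± 0.12 (SE). The median of this list was 0.0070. Of 13 tested intestinal stem cell markers, 3 rose and 5 fell, with a median of -0.07. CDK6, a G1 kinase, and LRIG1, which restrains ERBB receptors, rose by 0.72 ± 0.04 and 0.69 ± 0.05 (log2, SE), and FSTL1, a secreted glycoprotein, had a log2 fold change of -1.87 (edgeR adjusted p 1.45e-11), from 23.1 ± 0.41 CPM in control to 6.33 ± 0.54 CPM in knockdown (SD, n = 3 each). ASCL2, a stem cell transcription factor named after its values were seen, was at 34.0 ± 0.15 and 31.5 ± 0.96 CPM (SD, n = 3 each) and did not pass. OLFM4, SMOC2 and PROM1 had too few reads to be tested.

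**Figure D5:**
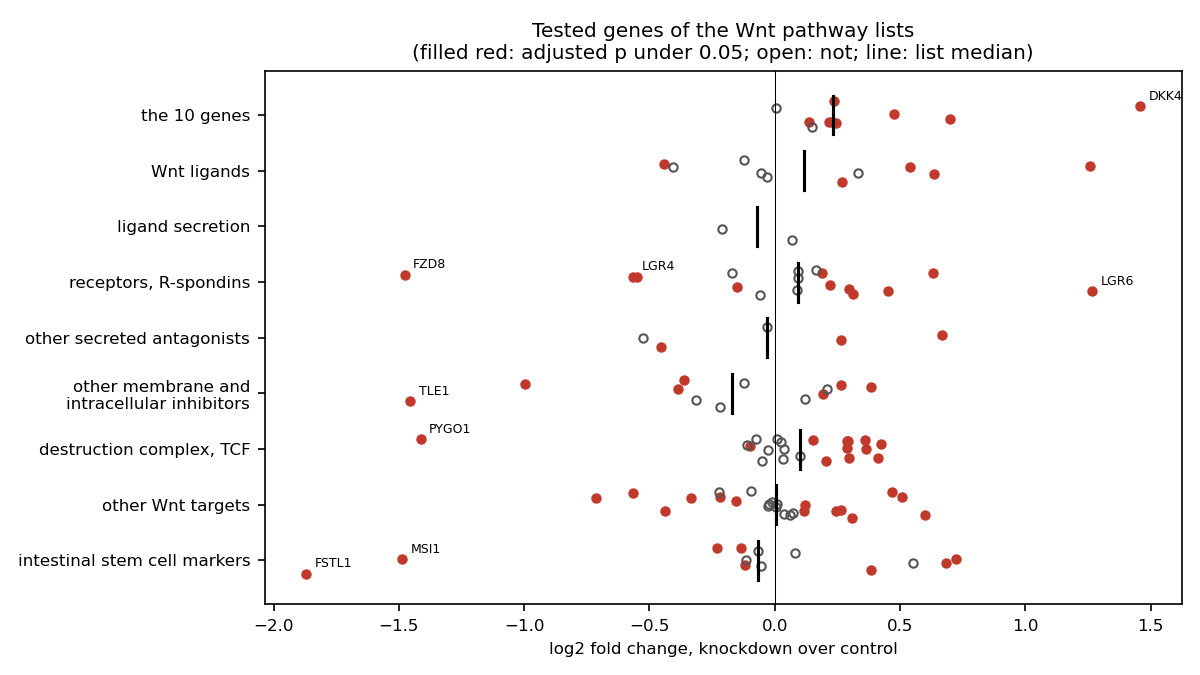
Log2 fold change (horizontal axis) of the tested genes in each Wnt list (rows, spread vertically at random), filled red where the adjusted p was under 0.05, with list medians as black lines. The 10 genes have a median of 0.23, and the other lists have medians between -0.17 and 0.12 with called genes on both sides of 0 in all but ligand secretion.

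The genes whose profile over the 6 libraries was nearest to that of DKK4 were ERBB3, TULP3, FGF19, EDAR and LGR6. Likeness was the root mean square difference of centred log2 CPM profiles among the 9030 genes averaging 200 counts or more, and was 0.08, 0.08, 0.09, 0.12 and 0.12 for these genes. ERBB3 is a receptor of the EGF receptor family, TULP3 a ciliary trafficking protein, FGF19 an intestinal hormone and EDAR the ectodysplasin receptor. FGF19 was at 11.2, 11.6 and 10.8 CPM in control and at 27.6, 27.8 and 28.4 CPM in knockdown. With 3 libraries in each group, this measure mostly reflects the step between the groups. Of the 8 other genes described here that were compared, NOTUM came nearest to DKK4, at rank 44, followed by RNF43 at rank 195. LGR5, with a mean of 151 counts, was below the limit for this comparison.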

How the data were processed

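RNA-seq of 3 control and 3 IRS2 knockdown SW403 libraries was used. The authors deposited whole-number read counts per gene symbol and a second table of normalized signal, in which each library's counts are divided by 1 constant. STAR 2.6.1a, Salmon, DESeq2 and hg19 are named, with no roles, per the submitters' processing notes; annotation and strand setting are not given in the sources used here. Gene positions come from GENCODE version 44 on GRCh37, the build hg19 names. 0 columns were left unused.

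Counts were tested with edgeR 4.0.16 in R 4.3.3 (filterByExpr, TMM, quasi-likelihood F-test, group as the only term, Benjamini-Hochberg over all tested genes, threshold 0.05). SE was obtained from the log2 fold change and F. Exact permutation of 3 against 3 libraries cannot go below a two-sided p of 0.1. Alternatives used DESeq2 1.42.0, limma 3.58.1, other scalings, filters and thinning, a replicate block, and each library left out. Scripts were tested on simulated data. Replicates differed by more than counting error (chi-square per degree of freedom 1.39 to 2.84).

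The 10 genes and all lists were chosen with earlier results of these data known. Named pathway genes are, per list, up to 3 called genes with the largest absolute log2 fold change among genes averaging 100 counts or more; 5 genes nearest to the DKK4 profile were named as well. Medians, counts and gaps between genes carry no test.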

Additional observations from a re-analysis of the deposited data

How the results depend on the processing

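Under 16 alternative fits the count of called genes among the 10 stayed at 8 higher and 0 lower, and 155 of 160 log2 fold changes of these genes held both sign and call. The exceptions were all in DKK1, which passed in no fit and changed sign to -0.017 with upper-quartile factors, -0.027 with library size alone, -0.0093 when genes averaging under 50 counts were left out, and ran from -0.041 to 0.044 with a library left out. DKK4 ranged from 1.43 to 1.47, NOTUM from 0.66 to 0.76, RNF43 from 0.45 to 0.53 and AXIN2 from 0.11 to 0.15. With limma on log2 of the deposited normalized signal (pseudocount 1), 1774 of 16213 genes were higher, against 2676 of 13832 in the main fit. The low-count filter was not applied to the deposited signal, so the gene sets differ, and the cause of the lower count was not tested. Of the gaps between neighbours, those of SP5 to APCDD1, APCDD1 to ZNRF3, ZNRF3 to NKD1 and LGR5 to AXIN2 changed sign in some of the alternatives. Same-numbered libraries did not deviate together (correlations 0.04, -0.01 and -0.10), so the numbers were not taken to pair them; with the replicate block 8 of the 10 genes were called higher, as without it, and the log2 fold change was 1.46 for DKK4 and 0.14 for AXIN2. For the 19 named pathway genes, 297 of 304 values kept their call, and the exceptions were all in KREMEN2. LGR5, at 118 to 197 counts per library, had the fewest counts of the 10 genes, and its adjusted p ran from 0.0736 (limma on the deposited signal) to 0.504 (DESeq2) over the alternatives.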

Other observations

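The Wnt genes below, both falls and rises, lay outside the rule for named genes and were picked after their values were seen. They include large falls at low counts. TLE1, a Groucho corepressor that binds TCF factors, had a log2 fold change of -1.45 (edgeR adjusted p 5.73e-08), from 10.3 ± 0.59 CPM in control to 3.76 ± 0.29 CPM in knockdown (SD, n = 3 each). The related corepressor TLE4 fell by less, with a log2 fold change of -0.36 ± 0.05, while TLE3 rose by 0.26 ± 0.03 (SE). PYGO1, which links beta-catenin to chromatin, went from 4.36 ± 0.14 to 1.64 ± 0.05 CPM, and the Frizzled receptor FZD8 from 4.80 ± 0.41 to 1.73 ± 0.53 CPM (SD, n = 3 each). MSI1, an RNA-binding protein of stem cells, went from 6.42 ± 0.71 to 2.29 ± 0.09 CPM (SD, n = 3 each; edgeR adjusted p 1.01e-06). Among the ligands, WNT6 rose from 4.86 ± 0.60 to 7.56 ± 0.53 CPM and WNT10A from 0.716 ± 0.33 to 1.74 ± 0.33 CPM (SD, n = 3 each; edgeR adjusted p 0.00121 and 0.00578). At 0.716 CPM in control, WNT10A rests on few reads.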
